A study of Mus musculus with 72 samples.

Results

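The collagen chain genes of the mouse were taken as every gene whose symbol reads Col, a number, a and a number. The rule used the symbol alone and no measured value. It found 38 of the 24091 genes listed in the liver or the suprachiasmatic nucleus (SCN) gene table. Of these, 33 stood in the liver table and 25 in the SCN table, and 20 stood in both. All 33 passed the filter on low counts in liver and all 25 in SCN. Col1a1, Col2a1, Col9a2, Col11a1 and Col26a1 were not in the liver table used here.

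Collagens are the main structural proteins of the extracellular matrix. Chains wind into a triple helix through repeats in which glycine takes a fixed place, and the kind of collagen is set by which chains join. Fibrillar chains such as those of types I, III and V pack into fibrils, type IV chains build the sheet of basement membranes, type VI chains form beaded filaments, and fibril-associated chains (FACIT) sit on the surface of fibrils. Multiplexins lie in basement membranes and release fragments such as endostatin, while a small class of chains spans the cell membrane. In liver, stellate cells and portal fibroblasts are known as the sources of fibril-forming collagen, and its build-up is what defines fibrosis. In brain, collagen lies mainly in vessel walls and the meninges.

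Transcripts were counted by RNA-seq in 72 libraries of 2 tissues, 2 diets and 6 circadian times (CT), with 3 libraries in each of the 24 groups. Mice were C57BL/6J, bought at 8 to 12 weeks of age and kept 1 per cage. The test diet lacked methionine and choline (MCD), a feed used to give mice a fatty and inflamed liver, and control mice had a feed of equal energy. Either was eaten for 11 days without limit on intake. After 10 days of light and dark cycles they were kept in darkness and sampled at CT0, 4, 8, 12, 16 and 20. Each group held 2 males, numbered 1 and 2, and 1 female, numbered 3, as the sample labels give them, although the protocol text speaks of males. Liver tissue came from the left lobe. The SCN, the hypothalamic seat of the central clock, was cut from stained brain sections by laser. Libraries were made from polyadenylated RNA with a kit that keeps strand. Per the design text the replicates are separate mice, so p-values measure the spread between mice within a group.

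Gene counts per library ran from 52600280 to 86740552 in liver and from 23347789 to 79812461 in SCN. Markers followed the tissue labels: the summed level of 6 hepatocyte genes lay between 55270 and 119700 CPM (counts scaled to a library total of 1000000) in liver and between 2.21 and 27.3 CPM in SCN, whose table holds 2 of the 6. The sum of 8 SCN neuron markers lay between 1682 and 4291 CPM in SCN, and Avp, Vip, Nms, Six6, Prok2 and Grp were not in the liver table. A set of 3 liver libraries, all from males, stood apart, namely the library labelled control CT08 (a), 1 of 2 columns with that name, and the libraries MCD CT04 1 and MCD CT12 2. In 11 of the 33 liver members all 3 lay above every one of the other 33 libraries, while 759 of 20249 genes tested (3.75%) did so. The 3 were picked after the data, chain levels included, had been seen, so this count describes them and is no test. Adjusted p-values given without them carry the same limit. Their summed level of activated stellate cell and myofibroblast markers was 101, 139 and 143 CPM, against 31.3 to 65.1 CPM in the other 33. The library labelled control CT08 (a) was also the lowest of the 18 control libraries in Col18a1, Col20a1 and Col27a1, genes that were lower on MCD. For the chains, values of the liver diet effect without these libraries are given where leaving them out changed a call or moved a called value widely. For marker genes and genes of the collagen lists, calls without these libraries were not taken. In bulk tissue, fewer cells of a type and less RNA per cell cannot be told apart.

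Levels between genes were compared per kilobase of exon on the control diet. In liver the highest was Col18a1, the source of endostatin, at 188 CPM per kilobase. It was followed by Col27a1, a fibrillar chain, at 11.4 CPM per kilobase and by Col14a1, a FACIT chain, at 9.68 CPM per kilobase. Col5a3 stood at 6.82, Col4a1 at 6.29, Col4a2 at 4.50 and Col3a1 at 3.76 CPM per kilobase. In the SCN gene table the highest was Col25a1, a membrane-spanning chain of neurons, at 10.8 CPM per kilobase. Next came Col9a2, a FACIT chain known from cartilage, at 9.20 CPM per kilobase and its partner Col9a3 at 3.68 CPM per kilobase. The basement membrane chains Col4a2 and Col4a1 stood at 3.28 and 2.49 CPM per kilobase. On counts summed over exon bins the first 2 of SCN changed places, with Col9a2 at 13.3 and Col25a1 at 9.21 CPM per kilobase, while Col18a1 still led in liver at 254. FACIT and type IV chains were among the leading genes of both tissues. Neighbours in this order were not tested against each other, and the spread over libraries, which differ in time and sex, was wide: Col27a1 had a mean of 148 CPM in control liver with an SD of 119 CPM (n = 18).

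**Figure D1:**
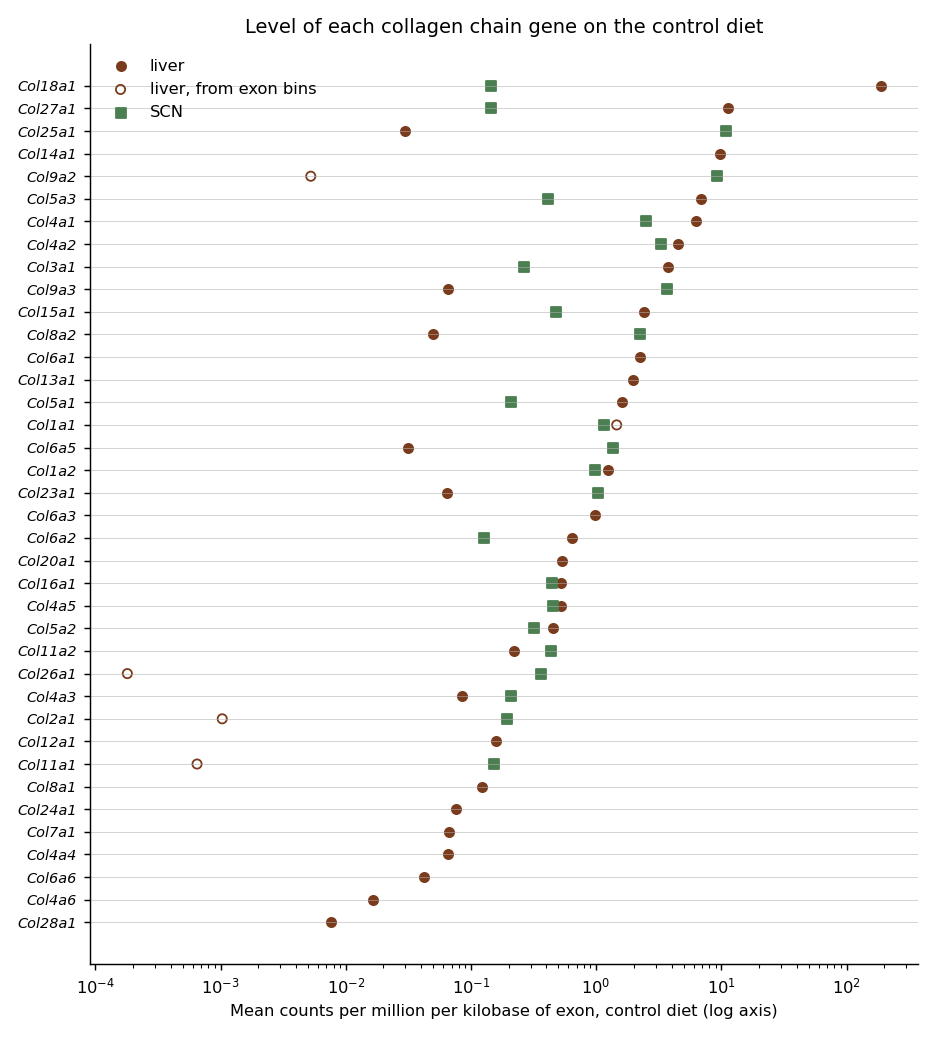
Mean level of each collagen chain gene on the control diet, in CPM per kilobase of exon on a log axis, with 1 row per gene. Filled circles are liver, open circles liver genes read from exon bins, and squares SCN; Col18a1 in liver lies far to the right of all other points at 188, and in SCN the gene counts put Col25a1 (10.8) and Col9a2 (9.20) highest, an order that exon-bin sums reverse.

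The first comparison asked which chains differed in liver between the diets, averaged over the 6 times. Fibrillar chains of types I and III, the type IV chains Col4a1 and Col4a2 and 3 type VI chains were higher on MCD, while Col27a1, Col20a1 and the multiplexins Col15a1 and Col18a1 were lower. Of 33 chains, 19 passed the edgeR test (quasi-likelihood, on counts with TMM scaling of the libraries) at an adjusted p under 0.05, 13 higher and 6 lower. The split was 9 higher and 8 lower with limma-voom and also on exon-bin sums. Over all 20249 genes tested the share called was 46.6%, with 25.3% higher and 21.2% lower. The median log2 change was 0.15 over the 33 chains and 0.017 over all genes. By class, 4 of 8 fibrillar chains rose and 1 fell (median log2 change 0.38), and 3 of 6 type IV chains rose (median 0.015). Of 5 beaded filament chains 3 rose (median 0.48), and of 5 FACIT chains 2 rose and 1 fell (median 0.31). Both multiplexins fell (median -0.69), as did 1 of 3 membrane-spanning chains (median -0.62) and 1 of 2 short-chain network members (median -0.42). The anchoring fibril chain Col7a1 rose, and Col28a1, at 0 in 13 control and 14 MCD libraries, was not called.

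**Figure D2:**
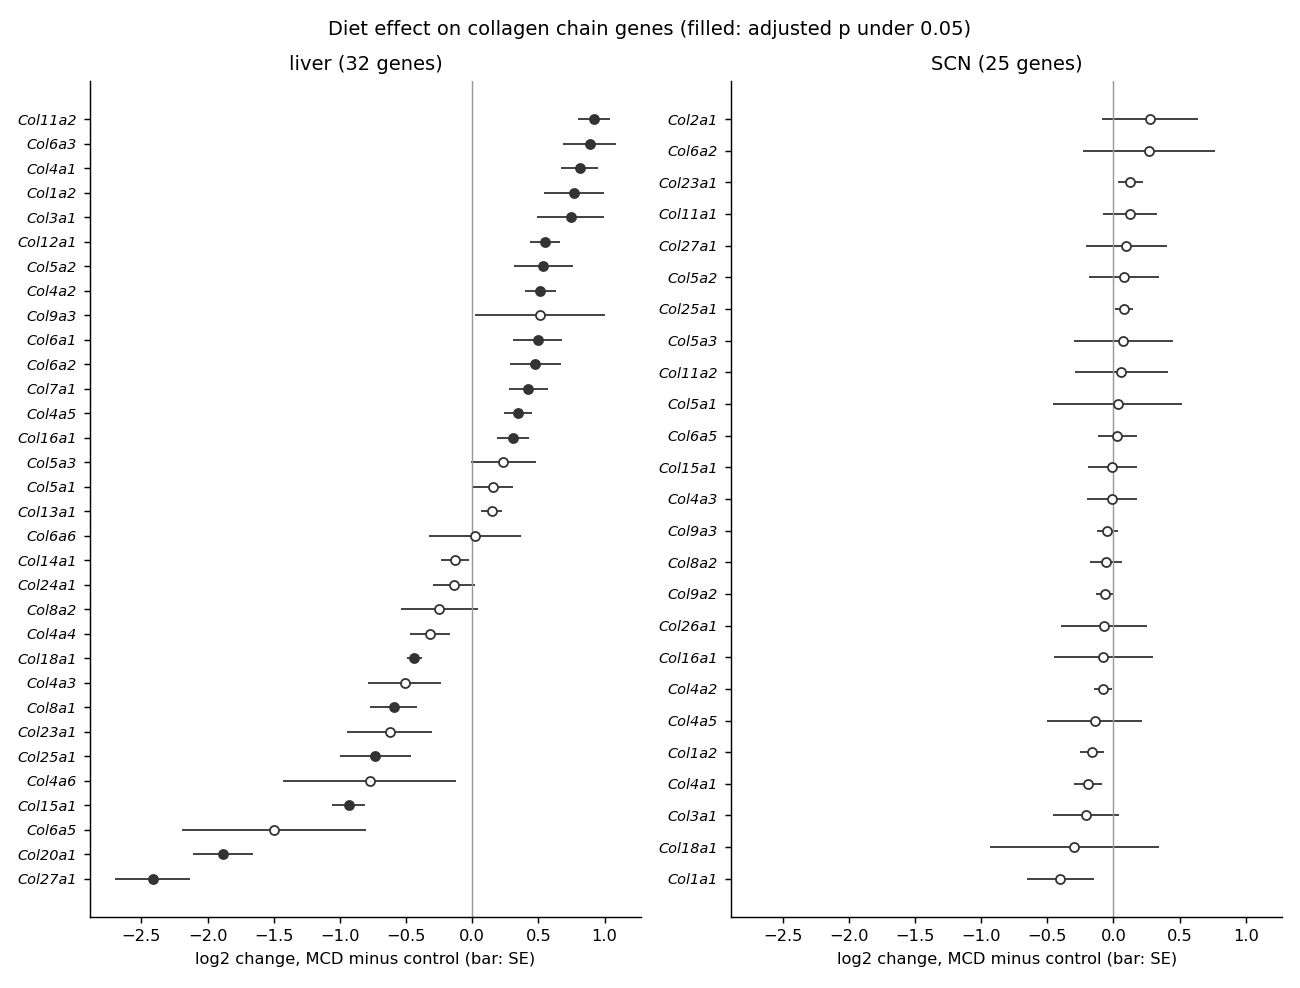
Log2 change on MCD against control (x axis) for each collagen chain gene in liver (left, 32 genes, without Col28a1, which has no standard error) and SCN (right, 25 genes); bars are standard errors and filled points have an adjusted p under 0.05. In liver 19 points are filled, from Col27a1 at -2.42 to Col11a2 at 0.92, and in SCN none is.

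Among fibrillar chains, Col1a2, the alpha-2 chain of type I collagen, had a lowest, median and highest value of 9.67, 12.5 and 52.1 CPM in the 18 control libraries. On MCD these were 12.1, 20.4 and 79.2 CPM. The groups overlapped, but 9 control libraries lay below every MCD library, and the fit gave a log2 change of 0.77 ± 0.23 (SE, adjusted p = 0.00656). Without the 3 libraries that stood apart the change was 0.55 (adjusted p = 0.000164). The call was lost without the males numbered 1 (0.57, adjusted p = 0.134) and without those numbered 2 (0.54, adjusted p = 0.0725). Col3a1, the chain of type III collagen, had 18.8, 28.15 and 163 CPM in controls, against 24.9, 40.9 and 231 CPM with MCD. Its log2 change of 0.74 ± 0.25 (adjusted p = 0.0185) became 0.49 without the 3 libraries (adjusted p = 0.00462), and the call was lost when MCD CT12 2 alone was left out (adjusted p = 0.054). It was also lost on exon-bin sums (0.71, adjusted p = 0.074), without the males numbered 1 (0.45, adjusted p = 0.274) and without those numbered 2 (0.54, adjusted p = 0.111). Col1a1, the alpha-1 chain of type I collagen, was read from counts summed over its exon bins in 16 control and 18 MCD libraries. It had 3.07, 5.28 and 67.0 CPM in controls, against 5.37, 14.1 and 116 CPM with MCD, where 8 control libraries lay below every MCD library. Its log2 change was 1.53 ± 0.39 (adjusted p = 0.00342, with 39.8% of 20595 genes called on bin sums). It was 1.28 ± 0.17 without the 3 libraries (adjusted p = 4.09e-06), and leaving out each of 33 of the 34 libraries in turn kept the call, with changes of 1.18 to 1.79. The library control CT00 3 was not left out, being the only one of its group with a complete exon-bin file.

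Col11a2, a chain that starts thin fibrils in cartilage, was rare in liver. Control libraries had 1.05, 1.32 and 2.75 CPM and MCD libraries 1.28, 2.62 and 4.76 CPM as lowest, median and highest, and 8 MCD libraries lay above every control. The log2 change was 0.92 ± 0.12 (adjusted p = 6.8e-07). Col27a1, whose chain is otherwise known from cartilage fibrils, moved the other way. It had 15.4, 107 and 385 CPM in controls, against 7.13, 18.03 and 53.1 CPM with MCD, and 13 control libraries lay above every MCD library. The log2 change of -2.42 ± 0.29 (adjusted p = 2.18e-07) was the largest among called chains, and it was negative at all 6 times, from -3.09 at CT20 to -1.36 at CT8. Col5a2 rose by 0.54 with an adjusted p of 0.0491, a call that was lost in 24 of 36 runs that left out 1 library. Without MCD CT12 2 its log2 change was 0.32 (adjusted p = 0.154), and without the 3 libraries 0.30 (adjusted p = 0.0358). The call was lost in 7 of 12 alternatives (highest adjusted p = 0.341). Its partners Col5a1 (13.6 CPM on control, 15.04 on MCD, adjusted p = 0.444) and Col5a3 (46.4 and 49.4 CPM, adjusted p = 0.466) were not called, although Col5a3 differed between the sexes in its response, as given further on. Col24a1 was not called either (adjusted p = 0.517).

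Of the type IV chains Col4a1, Col4a2 and Col4a5 were called. Col4a1, which joins with Col4a2 in nearly every basement membrane, had 26.4, 41.1 and 123 CPM in controls, against 44.6, 74.25 and 173 CPM with MCD. Of the controls 10 lay below every MCD library, and the log2 change was 0.81 ± 0.14 (adjusted p = 2.87e-05). For Col4a2 the controls had 17.25, 25.2 and 70.2 CPM, the MCD libraries 20.2, 38.9 and 86.6 CPM. The log2 change was 0.52 ± 0.12 (adjusted p = 0.000871), and 0.46 without the males numbered 1, where the call was lost (adjusted p = 0.0505). For both genes the highest control library was the one labelled control CT08 (a). Without the 3 libraries Col4a1 rose by 0.75 (adjusted p = 7.85e-08), and 11 of the other 16 MCD libraries lay above all other controls, while Col4a2 rose by 0.43 (adjusted p = 2.08e-05). Col4a5 rose by 0.35 ± 0.10 (adjusted p = 0.00681), from a mean of 3.50 ± 1.26 to 4.36 ± 1.27 CPM (SD, n = 18 each), and 4 MCD libraries lay above every control. Its call was lost without the males numbered 2 (0.25, adjusted p = 0.142). Its partners in the network of the kidney filter, Col4a3 and Col4a4, had log2 values of -0.51 (adjusted p = 0.133) and -0.32 (adjusted p = 0.0906), and Col4a6 had -0.78 with a wide error of 0.65 (adjusted p = 0.35). Col4a3 and Col4a4 were called lower without the 3 libraries, at -0.71 (adjusted p = 0.0345) and -0.40 (adjusted p = 0.0353). Of the short-chain network members, which lie in vessel walls, Col8a1 fell, with a log2 change of -0.59 ± 0.18 (adjusted p = 0.0074), at levels of 0.955 ± 0.323 CPM in controls, against 0.633 ± 0.296 CPM with MCD (SD, n = 18 each). Its call was lost with library totals in place of TMM scaling (log2 change -0.32, adjusted p = 0.164) and without the females (-0.58, adjusted p = 0.0644). Col8a2 was not called (adjusted p = 0.516).

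The 3 classical type VI chains, which bind cells to the surrounding matrix, were all higher on MCD. Col6a3 had 7.81, 9.70 and 46.4 CPM in controls, against 13.0, 16.5 and 65.0 CPM with MCD, and 16 of 18 control libraries lay below every MCD library. The log2 change was 0.89 ± 0.20 (adjusted p = 0.000755), and it was 0.74 without the 3 libraries (adjusted p = 1.88e-09), where 15 of 16 MCD libraries lay above all 17 controls. Col6a1 and Col6a2 rose by 0.50 (adjusted p = 0.0303) and 0.48 (adjusted p = 0.0463). Without the 3 libraries they rose by 0.27 (adjusted p = 0.00035) and 0.22 (adjusted p = 0.025). With all libraries in, their calls were lost in 6 and 27 of 36 runs that left out 1 library, and without MCD CT12 2 the changes were 0.30 and 0.27. They were also lost in 6 and 5 of 12 alternatives, among them limma-voom (adjusted p = 0.106 and 0.156), exon-bin sums (0.098 and 0.198) and without the males numbered 1 (0.23 and 0.372). The type VI chains Col6a5 and Col6a6 were under 1 CPM on average and not called (adjusted p = 0.0793 and 0.988), but Col6a5 was called lower without the 3 libraries (-2.63, adjusted p = 0.0123).

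FACIT chains went in both directions. Col20a1, a chain of little known role, had 1.24, 2.71 and 3.802 CPM in controls, against 0, 0.744 and 2.79 CPM with MCD. Of 18 MCD libraries 12 lay below every control, and the log2 change was -1.88 ± 0.23 (adjusted p = 1.87e-07). Col12a1, which sits on type I fibrils, had 1.22, 2.50 and 3.49 CPM among controls and 2.02, 3.14 and 8.34 CPM among MCD libraries. It rose by 0.55 ± 0.11 (adjusted p = 0.000291), and 5 MCD libraries lay above every control. Col16a1 rose by 0.31 (adjusted p = 0.0403), a call lost in 23 of 36 runs without 1 library. Its change was 0.20 without MCD CT12 2 (adjusted p = 0.112) and 0.20 without the 3 libraries (adjusted p = 0.0036), and the call was lost in 6 of 12 alternatives (highest adjusted p = 0.236). Col14a1, the most abundant FACIT chain in liver, had 67.9 ± 13.8 CPM in controls, against 61.9 ± 18.04 CPM with MCD (SD, n = 18 each) and was not called (adjusted p = 0.335). Without the 3 libraries, which held 103, 100.5 and 108 CPM of it against 39.1 to 86.3 CPM elsewhere, its log2 change was -0.26 (adjusted p = 1.18e-05). Col7a1, whose chain anchors the epidermis to the dermis, rose by 0.42 at a control level of 0.693 CPM (adjusted p = 0.019), a call lost in 3 of 12 alternatives, among them without the males numbered 2 (0.32, adjusted p = 0.217) and without the females (0.38, adjusted p = 0.155). Col9a3 was not called (adjusted p = 0.422).

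Both multiplexins were lower on MCD. Col18a1, the most abundant collagen transcript of liver, had 876, 1269 and 1654 CPM in controls, against 768, 991 and 1118 CPM with MCD. All control libraries but the one labelled control CT08 (a) lay above every MCD library, and the log2 change was -0.44 ± 0.06 (adjusted p = 1.24e-06). In Col15a1 the controls had 7.39, 14.45 and 23.8 CPM, the MCD libraries 3.50, 7.63 and 15.9 CPM. They overlapped, with a log2 change of -0.93 ± 0.13 (adjusted p = 1.38e-06). Both changes were negative at all 6 times. Col18a1 overlaps Slc19a1 on the opposite strand and Col4a1 lies against Col4a2, and whether counting used strand is not given in the sources used here. Of the membrane-spanning chains, Col25a1 fell (log2 change -0.73) from a control mean of 0.386 CPM (adjusted p = 0.0261), a call lost without control CT00 3 (or without control CT04 3) and in 5 of 12 alternatives, among them library totals (-0.48, adjusted p = 0.13), without the males numbered 1 (adjusted p = 0.116) and without the females (adjusted p = 0.114). Col13a1, found at cell contacts, had 9.01 ± 2.14 CPM in controls, against 10.0 ± 2.37 CPM with MCD (SD, n = 18 each, adjusted p = 0.133), and Col23a1 was not called (adjusted p = 0.115). The latter was called lower without the 3 libraries (-0.86, adjusted p = 0.0389).

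**Figure D3:**
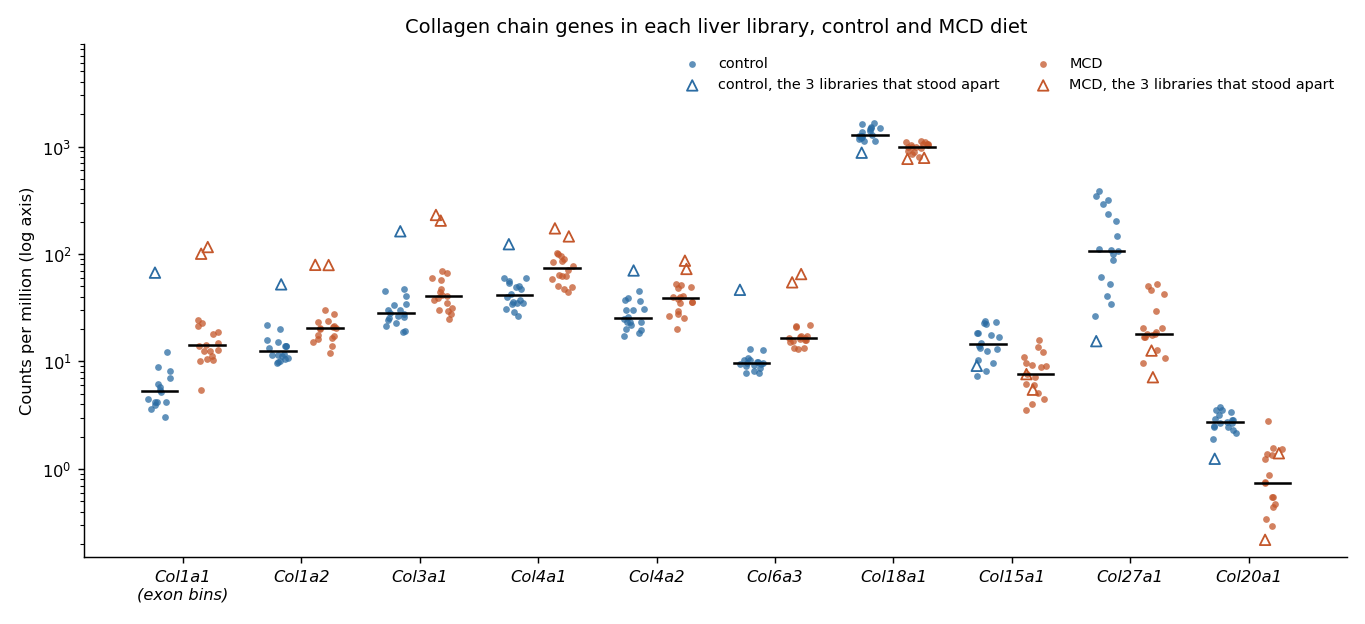
CPM (log axis) of 10 collagen chain genes in each liver library, control in blue and MCD in orange; black lines are medians, and open triangles mark the 3 libraries that stood apart. Col1a1 is read from exon bins, and the MCD library at 0 for Col20a1 cannot be drawn on a log axis; the triangles top each group for Col1a1, Col1a2, Col3a1, Col4a1, Col4a2 and Col6a3 but not for Col18a1 or Col27a1.

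The number of chains called depended on these libraries and on the scaling. Without the 3 libraries 24 of 33 chains were called, 13 higher and 11 lower, and 9694 of 20424 genes. The chains gained were Col4a3, Col4a4, Col6a5, Col14a1 and Col23a1, all lower. With library totals in place of TMM scaling the median gene lay 0.27 higher on the log2 scale, and 14 chains were called higher and 4 lower, with Col18a1 at -0.18 (adjusted p = 0.000329). The level of the mitochondrial transcript mt-Nd6 split the libraries into 21 low (8 control, 13 MCD) and 15 high ones (10 control, 5 MCD). With a term for this kind of library 13 chains were called, and Col5a2, Col6a1, Col6a2, Col7a1, Col16a1 and Col25a1 were not. The calls of Col27a1, Col18a1, Col11a2, Col20a1, Col15a1, Col4a1, Col12a1 and Col6a3 held in each of 12 alternatives, those without a replicate number included.

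Levels of cell markers were read beside the chains, against 25.3% of all genes higher and 21.2% lower on MCD. The summed level of 7 activated stellate cell and myofibroblast markers had medians of 45.2 CPM on control (31.3 to 101) and 57.0 CPM on MCD (46.1 to 143), and 4 of the 7 rose. That of 7 macrophage markers had medians of 239 CPM (185 to 397) and 327 CPM (235 to 458), and 6 of the 7 rose, among them Trem2, a receptor of lipid-laden macrophages. None of these markers was at 0 throughout, and Timp1 and Gpnmb were not in the table. Of 10 portal fibroblast and mesothelium markers 1 rose (summed medians 51.9 and 66.0 CPM), and of 10 quiescent stellate cell markers 2 rose and 3 fell (448 and 443 CPM). Of 6 hepatocyte markers 4 fell, while the medians of their sum were 98150 and 98120 CPM. Of 8 sinusoidal endothelium markers 3 rose (402 and 441 CPM), and of 6 cholangiocyte markers 1 rose (34.63 and 35.97 CPM). Lox is also in the list of procollagen processing. The part of these cells in the changes of the chains was not tested.

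Start regions are shown for the pair Col4a1 and Col4a2, which both rose on MCD and lie head to head on chromosome 8. In RefSeq (GRCm38.p6) their transcripts start 21 bases apart on opposite strands, and they overlap there, so that the 20 bases between the starts (chr8:11312806-11312825, plus strand) lie in both transcripts. They hold the GC box letters GGGCGG, in capitals.
Col4a1 to Col4a2: gtgcgcGGGCGGcgtctcca
For 3 genes whose changes differ, the 250 bases before the start are shown, none of them in an annotated exon, with GC box, CCAAT box (CCAAT) and TATA box (TATAAA) letters in capitals. The start used for Col27a1 is not the first of its gene, which is annotated from chr4:63214004, so its window lies within the gene. Both strands were searched, so CCGCCC is a GC box read from the other strand. Col3a1 rose on MCD, Col27a1 fell, and Col5a3 responded by sex.
Col3a1 (chr1:45311288-45311537, plus strand): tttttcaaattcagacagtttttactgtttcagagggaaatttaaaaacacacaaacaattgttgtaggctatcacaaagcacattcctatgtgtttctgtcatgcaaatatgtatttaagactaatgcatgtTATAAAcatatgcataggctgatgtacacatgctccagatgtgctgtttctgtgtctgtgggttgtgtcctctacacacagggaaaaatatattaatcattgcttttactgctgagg
Col27a1 (chr4:63215162-63215411, plus strand): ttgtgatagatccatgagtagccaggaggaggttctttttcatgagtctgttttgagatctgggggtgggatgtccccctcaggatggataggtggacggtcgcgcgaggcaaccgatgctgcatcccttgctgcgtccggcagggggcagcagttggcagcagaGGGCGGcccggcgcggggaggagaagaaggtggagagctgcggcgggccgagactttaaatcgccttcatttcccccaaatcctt
Col5a3 (chr9:20815068-20815317, minus strand): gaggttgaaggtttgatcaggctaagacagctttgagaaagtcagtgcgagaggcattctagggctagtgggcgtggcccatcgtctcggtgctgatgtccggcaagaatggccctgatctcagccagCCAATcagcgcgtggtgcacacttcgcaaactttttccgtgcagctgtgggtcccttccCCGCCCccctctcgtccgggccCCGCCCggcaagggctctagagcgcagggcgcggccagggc
Only Col3a1 among these holds the TATA box letters, Col27a1 holds the GC box letters, and Col5a3 those of the GC box and the CCAAT box. RefSeq held 32 start windows for 30 of the 38 genes. The GC box letters were in 21 of these (65.6%) and in 32.7% of all 32851 windows of that length. The CCAAT letters were in 10 (31.25%) against 33.8%, and TATAAA in 3 (9.375%) against 12.4%. The E-box letters CACGTG, which clock factors bind, were in none of the 32 and in 6.02% of all windows. Letters of different boxes were counted separately where they overlapped, and a match is a description of these windows only.

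Genes that make, cut and sense collagen were read from lists, against the same shares of all genes (25.3% higher and 21.2% lower). Of 30 genes for folding, hydroxylation and crosslinking of procollagen 15 rose and 5 fell on MCD (median log2 change 0.28, against 0.017 for all genes). Lox, the crosslinking lysyl oxidase, went from 0.289 to 0.673 CPM (log2 change 1.27, adjusted p = 0.00439). Of Lox the libraries control CT08 (a), MCD CT04 1 and MCD CT12 2, which stood apart, held 1.03, 3.05 and 0.626 CPM. The other 33 held at most 0.988 CPM, and list genes were not called again without the 3. Of 11 genes for collagen degradation and its inhibitors 6 rose and none fell (median 0.46). Mmp13, an interstitial collagenase, went from 0.417 ± 1.21 to 3.09 ± 4.02 CPM (SD, n = 18 each), a log2 change of 3.79 (adjusted p = 1.43e-06). Mmp8, the collagenase of neutrophils, was listed at 0 in 18 of 36 libraries and had 0.0203 and 0.173 CPM (adjusted p = 0.000203). Of 13 fibrogenic signal genes 8 rose and none fell (median 0.35). Ccn2, a growth factor induced by TGF-beta, went from 4.29 to 9.61 CPM (log2 change 1.13, adjusted p = 1.51e-05). Of 7 collagen receptors 1 rose and 1 fell (median 0.077).

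The next question was whether chains followed the time of day in liver. A 24 h wave was fitted across the 6 times of each diet, and its range from trough to peak is given in log2. On control, 6 of 33 chains passed (17.8% of all genes). Col4a2 had a range of 1.23 with a peak at 5.13 h (adjusted p = 0.0023), and Col4a1 a range of 1.14 with a peak at 4.72 h (adjusted p = 0.015). In control means Col4a2 went from 46.0 CPM at CT8 to 18.5 CPM at CT16, and Col4a1 from 74.0 to 29.9 CPM between the same times. At CT8 the library labelled control CT08 (a) held 70.2 CPM of Col4a2 and 123 CPM of Col4a1, and the other CT8 libraries 30.4 and 37.4 CPM of Col4a2 and 47.7 and 50.9 CPM of Col4a1. The 3 control libraries of CT16 lay below these, at 17.25 to 20.1 CPM of Col4a2 and 26.4 to 34.8 CPM of Col4a1. Col4a5 peaked at 7.86 h (range 0.89, adjusted p = 0.0104), Col13a1 at 14.9 h (range 0.61, adjusted p = 0.0218), Col27a1 at 16.8 h (range 1.87, adjusted p = 0.0486) and Col11a2 at 18.5 h (range 0.82, adjusted p = 0.0496). Without the library labelled control CT08 (a), which stands at CT8, Col4a1, Col4a2 and Col13a1 were called and Col4a5, Col27a1 and Col11a2 were not. No control wave was called in all alternatives: each was lost without the males numbered 1, and all but that of Col4a2 without those numbered 2. Without all 3 libraries that stood apart 7 were called, and on exon-bin sums 3 (9.93% of all genes there). The control means of the activated stellate cell marker sum ran from 40.05 CPM at CT0 to 68.3 CPM at CT8, the time of that library, and their part in these waves was not tested.

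On MCD, 9 of 33 chains passed (28.2% of all genes). Col20a1 had the widest range of these, 2.75 with a peak at 15.7 h (adjusted p = 0.000292). Its MCD means were 0.402, 0.285, 0.514, 1.18, 1.96 and 1.15 CPM from CT0 to CT20, while control means stayed between 2.47 and 3.08 CPM. The MCD value thus came closest to control at CT16. Col15a1 peaked at 18.7 h (range 1.19, adjusted p = 0.00331), Col12a1 at 18 h (0.97, adjusted p = 0.00658), Col7a1 at 16.3 h (1.03, adjusted p = 0.0252) and Col13a1 at 15.5 h (0.52, adjusted p = 0.0388). Col5a3 peaked at 21.1 h with a range of 2.05 (adjusted p = 0.0069), and Col11a2 at 14.7 h with 0.88 (adjusted p = 0.0187). Col4a2 peaked at 4.82 h with 0.93 (adjusted p = 0.0135), close in time to its control peak, and Col25a1 at 3.78 h with 1.87 (adjusted p = 0.0325). The MCD waves of Col20a1 and Col15a1 were called in all 12 alternatives, and each of the others was lost without at least 1 replicate number. With the 3 libraries left out 13 chains had an MCD wave: those of Col11a2 and Col25a1 were lost, and those of Col4a1, Col4a5, Col5a1, Col6a1, Col18a1 and Col27a1 were gained. The difference of the waves between the diets passed for 1 of 33 chains (4.87% of all genes), Col20a1 (adjusted p = 0.0455). This call was lost without a filter on low counts and when any replicate number was left out. Col5a3 and Col25a1, also called on MCD and not on control, had adjusted p-values of 0.237 and 0.17 for the difference.

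**Figure D4:**
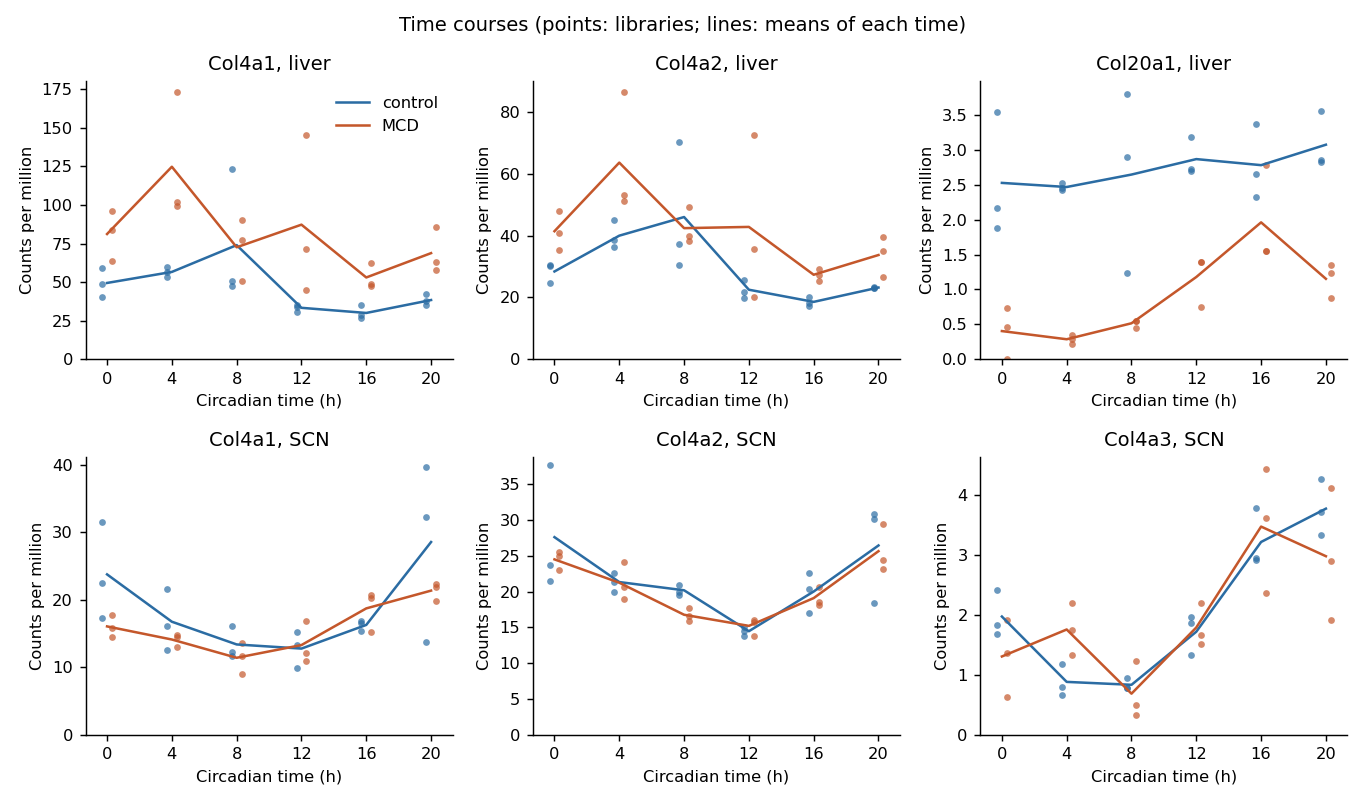
CPM against circadian time in hours for 3 liver genes (top) and 3 SCN genes (bottom); points are libraries, 3 for each diet and time, and lines join their means. Liver Col20a1 on MCD rises to a mean of 1.96 at CT16 while control means stay between 2.47 and 3.08, and Col4a3 in SCN peaks late on both diets.

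Sex was a term in these fits. In liver 8 of 33 chains differed between the 12 female and 24 male libraries (9.44% of all genes), 5 higher and 3 lower in females (5.17% and 4.27% of all genes). Without the 3 libraries that stood apart, all of them male, 14 chains were called, 10 higher and 4 lower, and 3956 of 20424 genes. Col4a5 was higher in females, with 3.32, 4.88 and 6.56 CPM as lowest, median and highest against 1.80, 3.15 and 5.95 CPM in males (log2 difference 0.59, adjusted p = 0.000454). Col4a3 was higher by 1.12 (adjusted p = 0.0122), and on control its 6 female libraries had 0.860 to 2.62 CPM and its 12 male libraries 0.246 to 0.600 CPM, with no overlap. Col13a1 (0.34, adjusted p = 0.00759), Col15a1 (0.48, adjusted p = 0.0197) and Col24a1 (0.52, adjusted p = 0.0458) were also higher in females. Col27a1 had a log2 difference of -1.13 (adjusted p = 0.0202), with mean values of 34.3 CPM in females and 111 CPM in males. Col5a3 had a log2 difference of -1.18 (adjusted p = 0.00591), and Col6a6 had a log2 difference of -1.25 (adjusted p = 0.033). Only the calls of Col4a5 and Col5a3 were kept both without the males numbered 1 and without those numbered 2. Col24a1 also lost its call with no filter on low counts and on exon-bin sums. Some marker sums differed by sex too. On control, that of portal fibroblast and mesothelium was 64.6 to 116 CPM in females. In males it was 33.7 to 56.2 CPM, apart from 84.1 CPM in control CT08 (a). For quiescent stellate cells the values were 508 to 637, 358 to 467 and 517 CPM. The activated stellate sum overlapped (46.1 to 54.9 CPM in females, 31.3 to 101 in males). The part of these cells in the sex differences was not tested.

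Col5a3, a chain of type V collagen, differed between the sexes in its diet effect. In control livers the 6 females had 6.97, 13.5 and 17.6 CPM as lowest, median and highest and the 12 males 30.6, 65.1 and 88.5 CPM, with no overlap. On MCD the females had 12.6, 44.0 and 71.9 CPM and the males 16.1, 63.5 and 86.5 CPM, and the sexes overlapped widely. The log2 diet effect was 1.67 in females and -0.44 in males, and the difference of 2.11 ± 0.28 passed the test (adjusted p = 0.000147). It was the only one of 33 chains that did with edgeR (1.77% of all genes), and limma-voom called Col4a3 too. For Col4a3, females went from 1.64 ± 0.681 to 0.532 ± 0.247 CPM (SD, n = 6 each) and males from 0.445 ± 0.122 to 0.459 ± 0.199 CPM (n = 12 each), but the difference did not pass (edgeR adjusted p = 0.0974). Col27a1 fell in mean from 197 to 26.04 CPM in males and from 50.5 to 18.2 CPM in females, with an adjusted p of 0.357 for the difference. The 3 libraries that stood apart are all male; without them Col5a3 was still the only chain called.

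**Figure D5:**
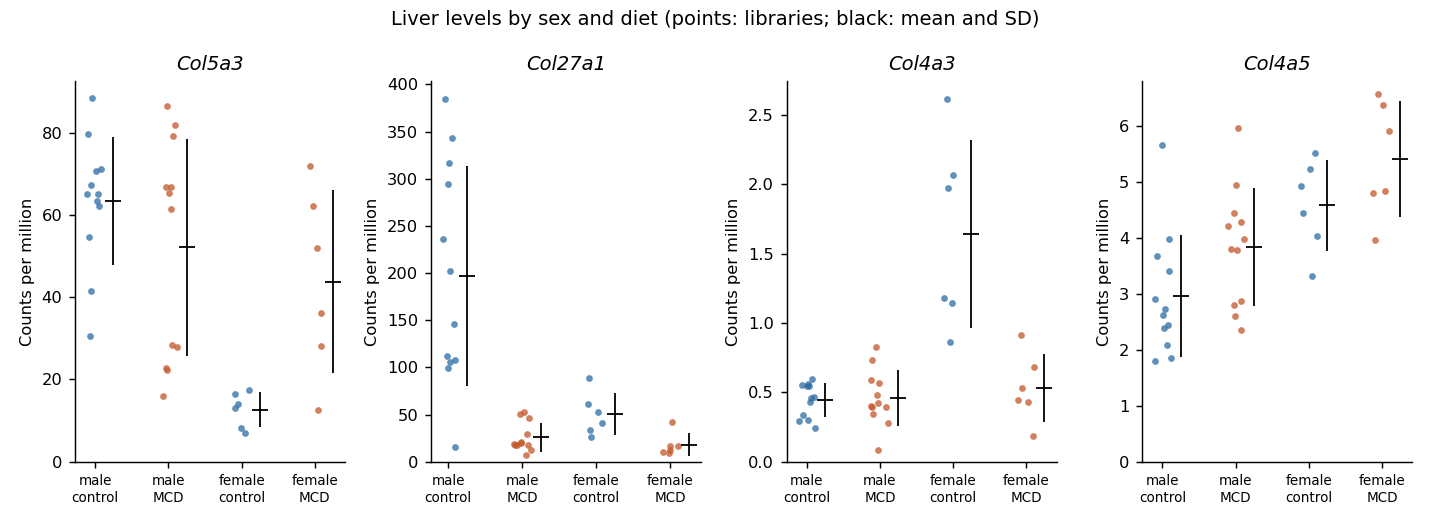
Liver levels in CPM of Col5a3, Col27a1, Col4a3 and Col4a5 by sex and diet; points are libraries (12 male and 6 female per diet), black marks are means and SDs. Female control livers lie below all male control livers for Col5a3 (17.6 against 30.6 at the nearest) and above them for Col4a3.

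In SCN the same comparisons were made on 25 chains. No chain differed between the diets by the edgeR test, and 0 of 25 had an unadjusted p under 0.05. DESeq2 and limma-voom also called 0, and 10 of 15759 genes (0.0635%) were called by edgeR. The median log2 change was -0.01. Col25a1, which released from the membrane can join amyloid deposits, had 83.6, 130.5 and 224 CPM in controls, against 79.9, 151 and 209 CPM with MCD. Its log2 change was 0.08, with a 95% interval from -0.06 to 0.21. Col9a2 had 22.1, 27.8 and 37.5 CPM in controls, against 17.7, 26.4 and 38.6 CPM with MCD (interval -0.20 to 0.07). For Col4a2 the interval was -0.22 to 0.05 and for Col4a1 -0.40 to 0.01. For these abundant chains the upper bounds were thus 0.21 or lower, while the bounds of rarer chains lay wider. For Col1a1 the interval was -0.90 to 0.10, and for Col18a1, near 1 CPM, -1.55 to 0.96. Of 54 genes on the lists for making, cutting and sensing collagen and for fibrogenic signals none was called in SCN, and 4 had an unadjusted p under 0.05.

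In SCN more chains passed for time of day than for diet. On control, 8 of 25 chains passed the test for a 24 h wave (15.1% of all genes), and on MCD 5 did (16.1%). Col4a3, rare in brain, had the widest range among chains called on both diets. Its control means fell to 0.834 CPM at CT8 and reached 3.77 CPM at CT20, with a range of 2.34 and a peak at 18.4 h (adjusted p = 0.000239). On MCD the range was 1.79 with a peak at 18.2 h (adjusted p = 0.00403). The peak time of Col4a3 was thus much the same on both diets. Col4a2 had a range of 0.80 and a peak at 23.2 h on control (adjusted p = 0.000406) and 0.76 and 22.6 h on MCD (adjusted p = 0.000751). Col4a1 had 1.14 and 21.9 h on control (adjusted p = 0.00101) and 0.83 and 19.7 h on MCD (adjusted p = 0.0178). Col25a1 peaked nearly opposite, at 12.3 h on control (range 0.79, adjusted p = 0.00051) and at 11.8 h on MCD (range 0.57, adjusted p = 0.0122). Col23a1, also membrane-spanning, peaked at 1.59 h (adjusted p = 0.0192) and 23.6 h (adjusted p = 0.0418). Its MCD call was lost in 6 of 9 alternatives (highest adjusted p = 0.228), and its control call without the males numbered 2 and without the females. Among the waves of both diets, those of Col4a2 were called in all 9 alternatives, and those of Col4a1, Col4a3 and Col25a1 on control but not on MCD, where leaving out a replicate number ended them. Mean levels of Col4a1 and Col4a2 on control were lowest at CT12 (12.8 and 14.5 CPM), where Col25a1 stood at 175 CPM.

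A further 3 chains were called in SCN on control and not on MCD. Col1a1 had control means of 13.1, 5.68, 2.37, 4.68, 3.60 and 16.1 CPM from CT0 to CT20 (range 2.42, adjusted p = 0.0058). Its MCD means lay between 3.03 and 7.30 CPM (adjusted p = 0.338). Its highest control values were 20.5 CPM in control CT00 2, 18.5 CPM in control CT20 1 and 25.6 CPM in control CT20 3. The other controls held 1.43 to 11.2 CPM, with 4.17 CPM in control CT20 2. Col4a1 was also highest in those 3 libraries (31.5, 32.2 and 39.65 CPM), with 13.8 CPM in control CT20 2. Gene counts of the 3 were 27495066, 36594987 and 23347789, against 61180634 in control CT20 2. The waves were not tested without these 3 SCN libraries. Col1a2 had a range of 0.81 on control (adjusted p = 0.00834) and 0.31 on MCD (adjusted p = 0.454). Col9a3 had 0.57 (adjusted p = 0.0379), a call lost in 6 of 9 alternatives. The call of Col1a2 was lost with the replicate block (adjusted p = 0.0719) and without the males numbered 1 (adjusted p = 0.126), as was that of Col1a1 without those males (adjusted p = 0.0895). The difference between the diets passed for 0 of 25 chains by edgeR (0.0127% of all genes), and 1 chain, Col1a2, had an unadjusted p under 0.05; DESeq2 and limma-voom also called 0. Marker sums also differed between times, with other highest times on MCD than on control. On control, 6 markers of meningeal and perivascular fibroblasts had a mean sum of 35.0 CPM at CT20 and of 14.6 CPM at CT4. On MCD their time means ran from 15.8 CPM at CT12 to 24.0 CPM at CT16. For 8 mural cell markers the control means ran from 128 CPM at CT12 to 183 CPM at CT20. Their MCD means ran from 111 CPM at CT12 to 153 CPM at CT4. For 7 endothelial markers the control means ran from 177 CPM at CT4 to 215 CPM at CT20. On MCD these ran from 185 CPM at CT0 to 217 CPM at CT4. The part of these markers in the waves of the chains was not tested.

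In SCN 3 of 25 chains differed by sex (9.89% of all genes, 4.91% higher and 4.98% lower in females). Col1a2 was higher in females, with 8.00, 13.2 and 23.4 CPM in 12 libraries against 7.31, 9.77 and 17.0 CPM in 24 male libraries (log2 difference 0.47, adjusted p = 0.00532). Col9a2 was higher by 0.30 (adjusted p = 0.00983), and Col25a1 had a log2 difference of -0.35 (adjusted p = 0.00543). None of the 3 calls was kept when the males numbered 1 were left out. The diet effect by sex passed for 0 of 25 chains and for 0 genes of the table by edgeR, and 1 chain, Col18a1, had an unadjusted p under 0.05; limma-voom also called 0. Col5a3, which carried the sex difference of the diet effect in liver, had log2 diet effects of 0.24 in females and -0.01 in males in SCN (adjusted p = 0.975 for the difference).

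For the 20 chains in both tables the tissues were compared in 1 fit of all 72 libraries, on a scale of its own. Of these, 19 differed between liver and SCN on the control diet, 13 higher and 6 lower in liver, where 90.4% of all 14491 genes differed (44.1% higher and 46.3% lower). The widest difference was that of Col18a1, with 2189 CPM in liver and 0.843 CPM in SCN (log2 difference 11.34). Col27a1 (7.59), Col5a3 (5.32), Col3a1 (5.01) and Col5a1 (4.11) followed. On the other side Col25a1 had 0.641 CPM in liver and 117 CPM in SCN (-7.53), followed by Col9a3 (-5.28), Col8a2 (-4.55) and Col6a5 (-4.44). Among these 20 chains the fibrillar ones were higher in liver, apart from Col11a2, which was not called (adjusted p = 0.702), and the membrane-spanning Col25a1 and Col23a1 were higher in SCN. Chains outside the 20 went both ways on exon-bin sums, which were not tested between the tissues. Fibrillar Col1a1 had control means of 9.57 CPM in liver and 5.26 CPM in SCN there, and fibrillar Col24a1 0.634 and 0.0146 CPM. The liver mean of Col1a1 was raised by the library control CT08 1, at 67.0 CPM. The other liver controls had 3.07 to 12.1 CPM of it and the SCN controls 0.542 to 21.2 CPM, so they overlapped. By contrast the membrane-spanning Col13a1 had control means of 12.5 CPM in liver and 0.392 CPM in SCN, and the fibrillar Col2a1 and Col11a1 had 0.00953 and 0.00827 CPM in liver and 1.92 and 1.91 CPM in SCN. With library totals in place of TMM scaling the calls of Col4a5 and Col16a1 were lost.

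The diet effect itself differed between the tissues for 9 of 20 chains (34.7% of all genes, 18.9% in the direction of liver and 15.8% the other way). It was more positive in liver for Col4a1 (difference 1.00, adjusted p = 1.54e-05), Col4a2 (0.60, adjusted p = 0.000762), Col1a2 (0.93, adjusted p = 0.00242) and Col3a1 (0.96, adjusted p = 0.0306). It was more negative in liver for Col27a1 (-2.54, adjusted p = 7.98e-07), Col15a1 (-0.93, adjusted p = 0.000751) and Col25a1 (-0.82, adjusted p = 0.00462), as for Col6a5 (-1.49, adjusted p = 0.026) and Col23a1 (-0.75, adjusted p = 0.0447). Col3a1, Col23a1, Col25a1 and Col6a5 lost the call with limma-voom, and only Col4a1, Col27a1 and Col15a1 kept it in all 6 alternatives. The fit treats liver and SCN libraries as independent, and the labels do not say which came from the same mouse.

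Exon bins, the parts of exons shared by the same transcripts, showed which stretches were used. In liver no chain of 21 tested changed its exon usage with the diet by edgeR (3.89% of 13242 genes did), 1 had an unadjusted p under 0.05, namely Col18a1, and a gene-level F test called 1, Col4a1. Between the tissues 18 of 30 chains differed on control (65.2% of 16118 genes). Col18a1 led these (adjusted p = 1.09e-13), with 16 of its 49 bins called. Its bin numbered 1 had a relative log2 value of -1.53 in liver. At which end of the gene, on the minus strand, this bin lies was not examined, so it is not read as a change of start. Col15a1 (13 of 43 bins), Col4a2 (16 of 49) and Col4a1 (25 of 60) came next. At about 1 CPM of Col18a1 in SCN, these bin values rest on few counts there.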

How the data were processed

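The authors deposited gene counts and counts per exon bin for each library. Trimmomatic, HISAT2, StringTie, DESeq2 and the build GRCm39 are named, without versions, in the submitters' processing notes, and no source used here gives their settings. The collagen chains, the gene lists and the tests were chosen with earlier results of these data known.

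Tests on these counts used edgeR 4.0.16 (R 4.3.3), quasi-likelihood, after TMM scaling and a filter on low counts (minimum count 10, minimum total 15), separately by tissue, over all genes, with Benjamini-Hochberg adjustment and a threshold of 0.05. Terms were diet, time and sex; rhythm was a cosine and sine of 24 h. Levels are CPM, counts scaled to a total of 1000000. The tissues were compared in a joint fit. Alternatives were limma-voom (limma 3.58.1), DESeq2 1.42.0, library totals, no filter, left-out libraries and counts summed over exon bins. The last, and leaving out the 3 liver libraries that stood apart, were chosen after seeing the data. In the gene tables the 2 male columns of control CT08 carry no number of their own, so they stayed in when a replicate number was left out and were dropped in the replicate block. The exon-bin files of 2 liver control libraries end early and were not used, so Col1a1 rests on 16 control libraries. The tests were also tested on simulated data.

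All 38 chains were accounted for. Called chains were named, with full values for the 12 with the smallest adjusted p; chains not called were named where they partner a called chain or lead their class. Other genes were named from the lists where called with a log2 change of at least 1.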

Additional observations from a re-analysis of the deposited data

Results flagged for a closer look

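These effects differed between groups by a test of the difference itself. The wave of Col20a1 in liver differed between the diets (2.49 on the log2 scale, edgeR adjusted p = 0.0455). The diet effect on Col5a3 in liver differed between the sexes by 2.11 (edgeR adjusted p = 0.000147); it was 1.94 without the 3 libraries that stood apart.

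The diet effect differed between liver and SCN for 9 chains, given as liver minus SCN on the log2 scale. It was higher in liver for Col4a1 (1.00), Col3a1 (0.96), Col1a2 (0.93) and Col4a2 (0.60). It was lower in liver for Col27a1 (-2.54), Col6a5 (-1.49), Col15a1 (-0.93), Col25a1 (-0.82) and Col23a1 (-0.75).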

How the results depend on the processing

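The count of chains with a diet effect in liver (19) lay between 17 and 19 under the other tools, scalings and filters, the replicate block and exon-bin sums, and it was 24 without the 3 libraries that stood apart. Limma-voom and exon-bin sums each called 9 higher and 8 lower. It was 13 with a term for the kind of library, 11 to 14 without a replicate number and 15 to 20 without 1 library. No called chain changed sign in the alternatives run. The count of chains with a 24 h wave in liver was 3 on control with the replicate block, 3 on exon-bin sums, 3 without the library labelled control CT08 (a) and 0 to 4 without a replicate number. On MCD it was 2 to 5 without a replicate number. The difference between these waves was called for 0 chains with no filter, 2 (Col20a1 and Col4a5) without the 3 libraries that stood apart and 0 without any replicate number. The count by sex in liver was 14 without those 3 libraries and 2 to 3 without a male replicate, and limma-voom called 2 chains (Col5a3 and Col4a3) for the diet effect by sex. In SCN, leaving out a replicate number gave 5 to 7 waves on control, 1 to 3 on MCD and 0 to 3 sex differences. The diet effect by tissue was called for 5 to 10 chains, and exon usage by diet in liver for 1 chain (Col4a1) by the gene-level F test. The causes were not tested, and leaving out libraries also left fewer samples. Whether replicate numbers pair the mice was looked at only on differences between the males numbered 1 and 2. These correlated above 0.1 in 11 of 55 pairs of groups in liver and 20 of 55 in SCN, which does not settle it. Number 3 is always the female, so a batch by that number cannot be told from sex. The replicate block also gave 19 chains for diet in liver, where Col25a1 lost its call. Chains under about 1 CPM rest on few counts, and their intervals are wide.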
